A study of Rattus norvegicus with 102 samples.

Results

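The genes of cAMP turnover and of its main kinase were followed through the rat hippocampus. A gene was a member when its symbol began with Adcy or Pde and a digit, or with Prkac or Prkar, and 42 of the 26284 genes listed met this rule. They were 10 adenylyl cyclases, 26 Pde symbols, 2 catalytic and 4 regulatory subunits of protein kinase A (PKA). The rule used no measured value, but it was chosen with earlier results of these data known. Male Fisher 344 rats (spelled as labelled) had been young (Y, aged 5 to 6 months, n = 10) or aged (17 to 22 months, n = 24). The labels name no transgene or drug in any group. A water maze had divided the aged rats into 12 unimpaired (labelled OG) and 12 impaired (labelled OB). Each of the 34 rats gave 1 dissected piece of CA1, of CA3 and of the dentate gyrus (DG), and each of 3 tables held a column for each piece. A library is here 1 piece as sequenced for a table. The pieces were bulk tissue, so fewer cells of a type and less RNA per cell cannot be told apart.

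Adenylyl cyclases make cAMP from ATP, most of them at the membrane under the control of G proteins, and phosphodiesterases (PDEs) degrade it. In PKA, a pair of regulatory subunits holds a pair of catalytic subunits silent until cAMP binds. In hippocampal neurons this cascade carries signals from calcium and modulatory transmitters to channels, receptors and the transcription factor CREB, and it is best known there for the late phase of synaptic potentiation and for spatial memory. The cyclases differ in their response to calcium, and the PDEs differ in whether they degrade cAMP, cGMP or both, so that the set present in a neuron shapes how it handles the signal. By function, 3 Pde symbols do not belong with the enzymes that degrade cyclic nucleotides. Pde12 encodes a mitochondrial exonuclease, Pde6d a chaperone of prenylated proteins, and Pde4dip (myomegalin) a scaffold of the centrosome and Golgi.

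CREB binds the palindrome TGACGTCA and its half-site TGACG, so the promoters of the members were searched for both. RefSeq (build GRCr8) held windows of 300 bases for 29 of the 42 members, 43 windows in all, each from 250 bases before to 50 after a gene start. No member window held the palindrome, which 1.83% of 33469 rat promoter windows held. The half-site, read on both strands (TGACG or CGTCA), stood in 10 of the 43 windows, from 8 genes (Adcy7, Adcy9, Pde10a, Pde4a, Pde4d, Pde8a, Prkaca and Prkacb), against 21.2% of all windows. Any palindrome also counts as a half-site. A match of letters is a description and shows no binding. The windows of 3 members on which the results turn are printed here 5′ to 3′ with half-sites in capitals. They are Adcy1 (chr14:86124869-86125168, plus strand), Prkar2b (chr6:54381362-54381661, minus strand) and Prkacb (chr2:238386266-238386565, minus strand).
Adcy1: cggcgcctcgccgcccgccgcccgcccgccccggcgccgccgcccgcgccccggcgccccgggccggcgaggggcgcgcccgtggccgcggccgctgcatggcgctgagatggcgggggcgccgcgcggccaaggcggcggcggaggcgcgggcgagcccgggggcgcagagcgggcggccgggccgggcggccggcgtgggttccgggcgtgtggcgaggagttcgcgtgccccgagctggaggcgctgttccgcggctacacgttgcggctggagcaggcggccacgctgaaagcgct
Prkar2b: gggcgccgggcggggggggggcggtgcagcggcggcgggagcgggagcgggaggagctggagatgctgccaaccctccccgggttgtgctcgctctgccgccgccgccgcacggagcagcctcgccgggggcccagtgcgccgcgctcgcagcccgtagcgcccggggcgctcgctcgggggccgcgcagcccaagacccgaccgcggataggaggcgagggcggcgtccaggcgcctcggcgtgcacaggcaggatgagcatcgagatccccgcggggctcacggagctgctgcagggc
Prkacb: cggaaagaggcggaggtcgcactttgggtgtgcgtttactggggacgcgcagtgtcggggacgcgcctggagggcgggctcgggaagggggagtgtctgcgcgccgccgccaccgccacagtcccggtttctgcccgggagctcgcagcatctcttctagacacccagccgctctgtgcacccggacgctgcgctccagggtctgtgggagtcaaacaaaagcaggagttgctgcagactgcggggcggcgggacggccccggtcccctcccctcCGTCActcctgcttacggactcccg
Adcy1 and Prkar2b held no half-site in this window, and Prkacb held 1, which lies after the gene start.

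The Illumina and Ion Proton tables came from poly-A RNA, while for the other table, which the submitters call WT, no library type is given in the sources used here. Values were counts divided by a size factor of the library (normalised counts), and libraries held 3.25 to 42.8 M reads on Illumina, 4.47 to 21.4 M on Ion Proton and 3.54 to 20.6 M in WT. In 12 of the libraries, from 10 rats, the marker genes of the subfields stood nearer to another subfield than to the label in both poly-A tables. Of these, 7 were labelled CA3, 4 DG and 1 CA1. The 1 labelled CA1, of OG rat R9869, stood nearest to DG, and the DG library of the same rat stood nearest to CA1. In the CA1 library of R9869 the CA1 markers summed to 2691, beside 9524 to 26165 in the other 33 CA1 libraries. Its dentate sum, 3500, was near their median of 3357, and its striatal sum was 25509, beside 1818 to 3599. Of the 10 rats, 9 had numbers from 9000 up. By group they were 2 Y, 7 OG and 3 OB libraries. They were kept under their labels, and results are also given without them. Because subfield markers picked them, wider subfield differences without them are partly built in for genes that move with those markers. The rat numbers formed a series below 9000 (5 Y, 6 OG, 7 OB) and one from 9000 up (5 Y, 6 OG, 5 OB). The series hold 5 Y with 13 aged and 5 Y with 11 aged rats, the same numbers that the design text gives for its pair of sites, but no label ties a rat number to a site.

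A total of 37 members had a mean of at least 10 normalised counts and were tested. The other 5, Pde6a, Pde6b, Pde6c, Pde6g and Pde6h, encode subunits of the photoreceptor enzyme of rods and cones, and at most 19 reads of any one of them were found in an Illumina library. Pde6a had above 3 reads in 0 Illumina libraries, and Pde6g in 35. Each table had its own normalisation, and a gene's level could differ between them. Ion Proton values were 0.898 times the Illumina values for the median member and 0.843 times for the median gene, but 3.27 times for Adcy9 and 0.38 times for Prkacb. Levels are therefore compared within a table and a gene only.

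The first question was how the subfields differed, whatever the age of the rat. A gene was called when its limma p-value, adjusted over all genes tested in a table (Benjamini-Hochberg), was under 0.05 in both poly-A tables with the same direction. On Illumina 14179 genes were tested, and the shares of all genes refer to these. A gene not tested on Ion Proton could not be called, whereas all 37 members were tested there for the subfields. Between CA1 and CA3, 13 of the 37 members were called, 7 higher and 6 lower in CA1. The share of all genes called was 14.1% (7.12% higher and 6.95% lower in CA1). Between CA1 and DG, 16 members were called, 9 higher and 7 lower in CA1, against 26.4% of all genes (13.1% higher, 13.2% lower). Between CA3 and DG, 18 members were called, 11 higher and 7 lower in CA3, against 27.9% of all genes (13.9% higher, 14.0% lower). The median absolute log2 difference of the members was 0.161, 0.201 and 0.193 in these pairs, beside 0.091, 0.133 and 0.135 for all genes. In WT all called members had the same direction, and 12 of the 13, 16 of the 16 and 18 of the 18 had an adjusted limma p under 0.05.

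**Figure D1:**
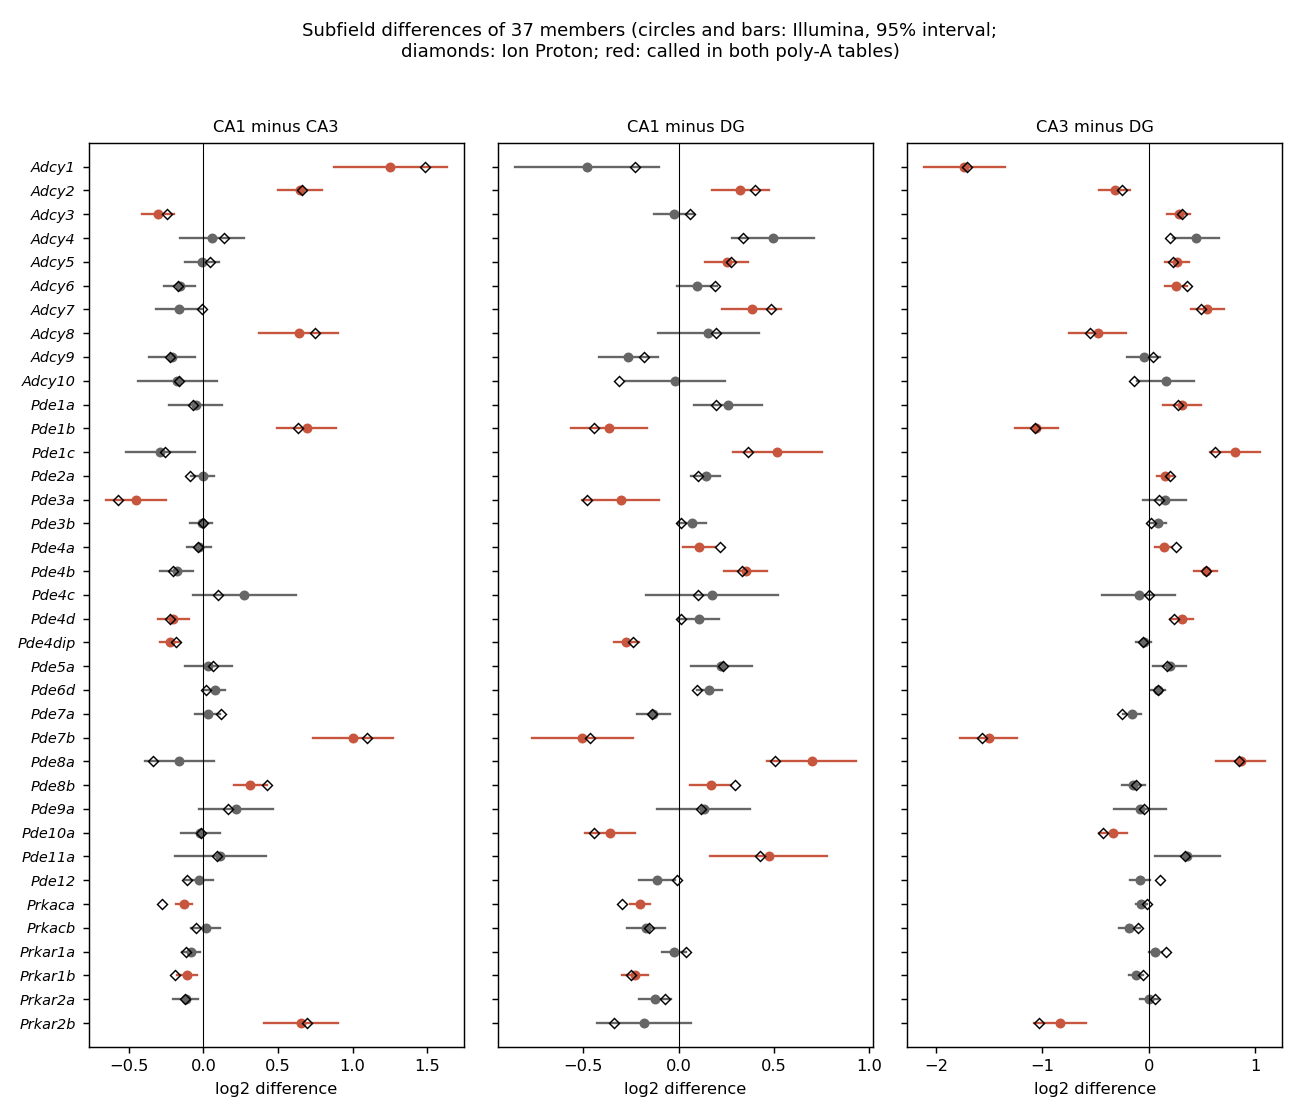
Log2 differences of the 37 tested members, 1 per line, for CA1 minus CA3, CA1 minus DG and CA3 minus DG from left to right. Circles and bars are the Illumina estimate and its 95% interval, diamonds the Ion Proton estimate, and red marks the 13, 16 and 18 members called in both tables. Adcy1, Pde1b, Pde7b and Prkar2b lie far to the left in CA3 minus DG, and Pde8a and Pde1c to the right.

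Markers of cell types also differed between the subfields, by the same rule for a call. The 8 dentate granule markers summed to an Illumina median of 3429 in CA1 (740.9 to 5757), 950.8 in CA3 (475.1 to 7256) and 7346 in DG (774.9 to 11764). Of the 6 tested, 6 were called higher in CA1 than in CA3 and 6 lower in CA3 than in DG, so CA1 pieces lay between CA3 and DG in these genes. The 7 CA3 markers summed to 7679 in CA1 (3880 to 12893), 20947 in CA3 (4650 to 27031) and 15831 in DG (6878 to 21594), and 5 of the 6 tested were called lower in CA1 against both. The 7 CA1 markers found in the table summed to 15126 in CA1 (2691 to 26165), 5637 in CA3 (1405 to 13823) and 3069 in DG (999.8 to 10637), and 6 of the 6 tested were called higher in CA1 against both. The study showed Wfs1, Nov, Ndst4, Gpr161, Nnat, Plk5, C1ql2 and Dsp among its subfield-specific genes from these libraries. Calls of these markers here are therefore not independent evidence. Between CA3 and DG, 10 of 10 oligodendrocyte, 6 of 6 precursor, 7 of 12 microglial and 4 of 10 astrocyte markers were called higher in CA3. Between CA1 and DG, 10 of 10, 6 of 6, 3 of 12 and 2 of 10 were called higher in CA1, beside 13.1% of all genes. No gene of these lists was at 0 throughout. Other lists were lower in DG too. Interneuron markers were called higher in CA1 than in DG in 4 of 8 cases and higher in CA3 in 4 of 8. For smooth muscle and pericyte markers these were 4 of 5 and 1 of 5, and for endothelial markers 4 of 7 and 0 of 7. Members with their lowest level in CA3 or in CA1 thus shared that subfield with the dentate or the CA3 markers. Those lowest in DG shared it with the oligodendrocyte markers and with several other lists. Those highest in CA1, such as Adcy2 and Pde8b, shared it with the CA1 markers. The part of the markers in these differences was not tested.

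Among the 9 membrane cyclases, Adcy1 and Adcy8, which calcium and calmodulin stimulate, stood lowest in CA3. Adcy1 (ENSRNOG00000008276) is the calcium-stimulated cyclase most studied in learning. Its Illumina level had a median of 3867 in CA1 (933.3 to 8377), 1398 in CA3 (520.4 to 10263) and 5437 in DG (918.9 to 8707), in normalised counts with the lowest and highest library in parentheses. The ranges overlapped, but CA3 was below CA1 in 28 of 34 rats and below DG in 30. The log2 difference was 1.25 ± 0.19 (SE) between CA1 and CA3 (limma, adjusted p = 6.83e-08) and -1.73 ± 0.19 between CA3 and DG (adjusted p = 4.34e-13). Without the 12 libraries against their label these were 1.59 and -2.16. CA1 and DG were not called apart, at -0.48 ± 0.19 on Illumina (adjusted p = 0.0273) and -0.23 on Ion Proton (adjusted p = 0.393). The dentate granule marker sums were also lowest in CA3 (3429, 950.8 and 7346 in CA1, CA3 and DG). The highest CA3 values, 10263 and 5898, came from a pair of those libraries (OB rat R9875 and OG rat R9865).

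Adcy8 had medians of 281.6 in CA1 (97.4 to 459.2), 158.6 in CA3 (101.5 to 373.2) and 274.1 in DG (97.9 to 445.6). CA1 exceeded CA3 by 0.64 ± 0.13 on the log2 scale (limma, adjusted p = 5.91e-05), and CA3 minus DG was -0.48 ± 0.13 (adjusted p = 0.00135). CA1 and DG were not called apart, with a 95% interval of -0.11 to 0.42. Adcy3, a cyclase known from olfactory cilia, went the other way. Its median was 1426 in CA3 (891.7 to 1913), beside 1181 in CA1 (904.7 to 1417) and 1207 in DG (915.3 to 1543). It was higher in CA3 than in CA1 in 30 of 34 rats, and the log2 difference of CA1 minus CA3 was -0.30 ± 0.05 (adjusted p = 2.04e-06).

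Adcy2 and Adcy7 belong to the cyclases that Gs and G protein beta-gamma subunits stimulate together. Adcy2 separated all 3 subfields, with medians of 2413 in CA1 (1282 to 3013), 1362 in CA3 (776.3 to 2417) and 1896 in DG (1411 to 2301). CA1 exceeded DG in 32 of 34 rats, by 0.33 ± 0.07 (limma, adjusted p = 0.000151), and CA3 by 0.65 ± 0.07 (adjusted p = 1.17e-11). Adcy7 was lowest in DG, with medians of 80.0 in CA1 (47.5 to 109.4), 83.3 in CA3 (56.0 to 161.3) and 60.1 in DG (36.5 to 98.1), and CA3 minus DG was 0.55 ± 0.08 (adjusted p = 4.73e-09). The 12 microglial markers were also lowest in DG, with median sums of 9541, 9334 and 7917 in CA1, CA3 and DG. Of them, 7 were called between CA3 and DG and 3 between CA1 and DG, beside 13.9% and 13.1% of all genes called in that direction. Oligodendrocyte, precursor and interneuron markers were also lower in DG, and the part of any of these in the Adcy7 difference was not tested. Adcy4, another of this class, had medians of 64.5, 64.1 and 44.1 in CA1, CA3 and DG, but the Ion Proton table did not call it between any pair.

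Adcy5 and Adcy6, the cyclases that calcium inhibits, were lower in DG than in CA3. Adcy5 had medians of 1800 in CA1 (1562 to 5332), 1836 in CA3 (1514 to 2593) and 1591 in DG (1265 to 2408), and CA3 minus DG was 0.26 ± 0.06 (limma, adjusted p = 4.82e-05). The CA1 value of 5332 came from OG rat R9869, a library against its label in which the sum of 8 striatal markers was 25509, beside 1818 to 3599 in the other 33 CA1 libraries. Adcy6 had medians of 790.8, 928.3 and 751.6 in CA1, CA3 and DG, and CA3 minus DG was 0.26 ± 0.05 (adjusted p = 2.09e-05). Adcy9, a widely expressed cyclase, and Adcy10, the soluble bicarbonate-sensitive cyclase, were not called between any pair. For Adcy10 the medians were 20.8, 25.3 and 22.7, near the limit of the filter.

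**Figure D2:**
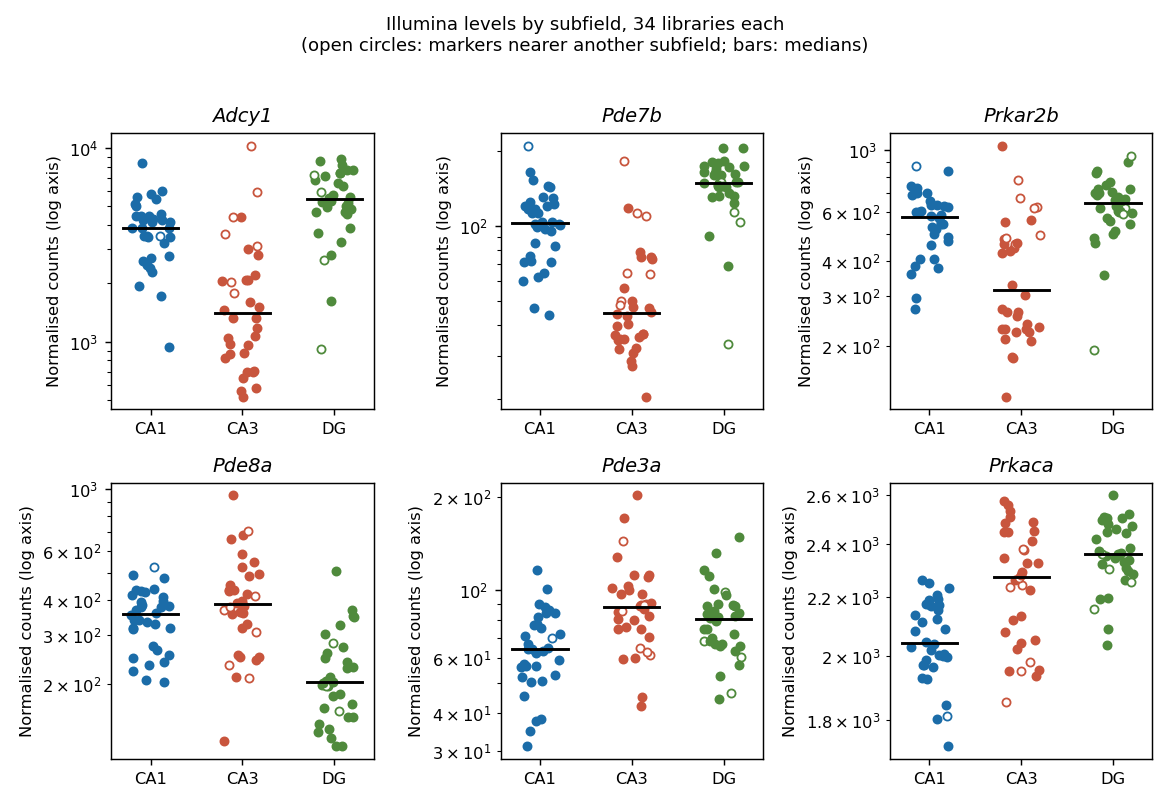
Illumina levels of 6 members (normalised counts, log axis) in CA1, CA3 and DG, 1 point per library and a bar at the median. Adcy1, Pde7b and Prkar2b are lowest in CA3, Pde8a is lowest in DG, and Pde3a and Prkaca are lowest in CA1. Open circles are the 12 libraries against their label, drawn under that label.

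Of the 8 cAMP-specific PDEs, Pde7b had the largest differences between CA1 and CA3 and between CA3 and DG. Between CA1 and DG that of Pde8a was larger. Pde7b (ENSRNOG00000013436), a high-affinity enzyme that rolipram does not inhibit, had a median of 102.6 in CA1 (43.7 to 210.8), 44.5 in CA3 (20.5 to 182.6) and 149.5 in DG (33.5 to 206.2). CA3 was below DG in 31 of 34 rats and below CA1 in 30. The log2 differences were 1.00 ± 0.13 for CA1 minus CA3 (limma, adjusted p = 1.25e-09), -0.50 ± 0.13 for CA1 minus DG (adjusted p = 0.000885) and -1.51 ± 0.13 for CA3 minus DG (adjusted p = 2.4e-17). Without the 12 libraries they were 1.15, -0.63 and -1.78. The medians followed the order of the dentate granule sums (3429, 950.8 and 7346 in CA1, CA3 and DG). The call between CA1 and DG was lost without Y rat R9780, at -0.48, with a pseudocount of 0.1, at -0.51, and with no filter on low values, at -0.50. Its paralog Pde7a was not called between any pair, and its medians were 143.5, 140.6 and 158.8.

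Pde8a and Pde8b, a pair of high-affinity enzymes, had different patterns. Pde8a (ENSRNOG00000019005) was lowest in DG, with medians of 357.2 in CA1 (204.2 to 524.9), 387.5 in CA3 (125.9 to 948.5) and 203.6 in DG (120.1 to 510.0). CA1 exceeded DG in 32 of 34 rats, by 0.70 ± 0.12 (limma, adjusted p = 3.52e-07), and CA3 exceeded DG by 0.86 ± 0.12 (adjusted p = 9e-10). Oligodendrocyte markers moved with it. The sum of all 10 had a median of 80445 (47898 to 232761) in DG, 136024 (79748 to 308164) in CA1 and 164492 (58120 to 407460) in CA3, none of the 10 was at 0 throughout, and their part in the Pde8a difference was not tested. Pde8b was highest in CA1, with medians of 431.9 in CA1 (330.3 to 567.1), 333.5 in CA3 (235.1 to 569.0) and 385.4 in DG (307.4 to 615.7), and CA1 minus CA3 was 0.32 ± 0.06 (adjusted p = 1.63e-06).

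The rolipram-sensitive PDE4 enzymes degrade much of the cAMP in neurons, and 3 of their 4 genes were called between CA3 and DG, each higher in CA3, beside 13.9% of all genes called higher there. Pde4b had medians of 651.7 in CA1 (446.8 to 797.3), 752.1 in CA3 (453.9 to 1013) and 491.4 in DG (350.4 to 737.1), and CA3 minus DG was 0.53 ± 0.06 (limma, adjusted p = 4.78e-14). Pde4d had medians of 275.9, 319.4 and 257.0 in CA1, CA3 and DG, and CA3 minus DG was 0.31 ± 0.05 (adjusted p = 5.96e-07). Its call between CA1 and CA3, at -0.20 ± 0.05, was lost in WT, at -0.02, and with no filter, at -0.20. Pde4a had medians of 763.5, 746.7 and 693.9, with a CA3 minus DG difference of 0.14 ± 0.04 (adjusted p = 0.00349). Its call between CA1 and DG was lost with edgeR, at 0.09. Pde4c, with medians of 28.5, 24.1 and 28.4, was not called.

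Dual PDEs degrade both cyclic nucleotides, and the 3 calcium-dependent PDE1 genes among them were all called between CA3 and DG, Pde1b lower and Pde1a and Pde1c higher in CA3. Pde1b, with medians of 1853 in CA1 (1103 to 5450), 1077 in CA3 (605.2 to 2157) and 2400 in DG (853.0 to 3242), was called between each pair. Its log2 differences were 0.69 ± 0.10 for CA1 minus CA3 (limma, adjusted p = 2.29e-08) and -1.06 ± 0.10 for CA3 minus DG (adjusted p = 9.55e-16). Pde1c was lowest in DG, with medians of 55.6 in CA1 (31.4 to 120.7), 69.1 in CA3 (40.5 to 140.1) and 38.6 in DG (9.16 to 107.9), and CA3 minus DG was 0.81 ± 0.12 (adjusted p = 6.49e-09). Its call between CA1 and DG, at 0.52 ± 0.12, was lost without the 12 libraries, where Illumina gave 0.53 and Ion Proton no longer passed. Pde1a had medians of 836.6, 829.3 and 643.5 in CA1, CA3 and DG, and CA3 exceeded DG by 0.31 ± 0.09 (adjusted p = 0.0021), a call that was lost with no filter, at 0.31.

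Of the other dual PDEs, Pde3a, an enzyme that cGMP inhibits, was lowest in CA1. Its medians were 64.4 in CA1 (31.1 to 115.8), 87.7 in CA3 (42.2 to 202.3) and 80.4 in DG (44.3 to 148.0), and CA1 minus CA3 was -0.45 ± 0.10 (limma, adjusted p = 0.000182). In the Ion Proton table the adjusted p was 0.0279, and both calls of Pde3a were lost without Y rat R9876, at -0.41 against CA3 and -0.30 against DG. The call against DG was also lost with a pseudocount of 0.1, with no filter, with edgeR, with DESeq2 and without Y rat R9780, at -0.33 to -0.29. Pde10a, best known from striatal projection neurons, was highest in DG, with medians of 611.8 in CA1 (347.2 to 1675), 608.4 in CA3 (455.0 to 1028) and 786.8 in DG (510.0 to 1025). It was higher in DG than in CA1 in 30 of 34 rats and higher than in CA3 in 31. Pde2a, which cGMP stimulates, had medians of 7399, 7409 and 6583 in CA1, CA3 and DG, and CA3 minus DG was called at 0.15 ± 0.04 (adjusted p = 0.000638). Pde11a was called between CA1 and DG alone, at 0.47 ± 0.15 (adjusted p = 0.00663), and lost that call with rat as a block, where Illumina gave 0.47 and Ion Proton no longer passed. It was also lost with a pseudocount of 0.1, with no filter, under quantile normalisation and without Y rat R9780, at 0.37 to 0.48. Pde3b was not called.

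The 2 tested cGMP-specific members, Pde5a and Pde9a, were not called between any pair. Pde5a had medians of 150.0, 135.1 and 122.2 in CA1, CA3 and DG, and Pde9a had 370.8, 326.0 and 327.8. Among the Pde symbols of other function, Pde4dip was lowest in CA1, with medians of 3347 in CA1 (2948 to 4008), 3950 in CA3 (2964 to 5169) and 4175 in DG (3651 to 4654). It was below DG in 33 of 34 rats, and CA1 minus DG was -0.27 ± 0.03 (limma, adjusted p = 2.74e-11). Pde6d and Pde12 were not called.

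The PKA subunits did not share a pattern. Prkar2b (ENSRNOG00000009079), the type II regulatory subunit enriched in neurons, had medians of 577.2 in CA1 (270.3 to 871.0), 315.7 in CA3 (131.9 to 1033) and 642.5 in DG (193.9 to 949.6). CA1 exceeded CA3 in 26 of 34 rats, by 0.65 ± 0.12 (limma, adjusted p = 1.12e-05), and CA3 was below DG in 27, with a difference of -0.83 ± 0.12 (adjusted p = 1.29e-08). Without the 12 libraries these differences were 0.83 and -1.07. The dentate granule markers moved the same way, with a median log2 difference of 1.64 for CA1 minus CA3 and -2.83 for CA3 minus DG over the 6 tested. Its paralog Prkar2a had medians of 305.2, 330.9 and 328.4 in CA1, CA3 and DG and was not called.

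Prkar1b, the neuronal type I regulatory subunit, and Prkaca, the main catalytic subunit, were lowest in CA1, as were the CA3 marker sums (7679, 20947 and 15831 in CA1, CA3 and DG). Prkar1b had medians of 6113 in CA1 (4375 to 7514), 6764 in CA3 (4513 to 7676) and 7049 in DG (5823 to 7978). It was below DG in 32 of 34 rats, and CA1 minus DG was -0.23 ± 0.03 (limma, adjusted p = 1.96e-08). Its call between CA1 and CA3, at -0.11 ± 0.03, was lost under quantile normalisation, at -0.05, without Y rat R9780, at -0.10, and at -0.11 both with a pseudocount of 0.1 and with no filter. Prkaca had medians of 2041 in CA1 (1724 to 2262), 2276 in CA3 (1855 to 2574) and 2359 in DG (2034 to 2599), and CA1 minus DG was -0.20 ± 0.03 (adjusted p = 3.29e-10). Prkar1a, the widely expressed type I subunit, had medians of 3599, 3962 and 3684 in CA1, CA3 and DG and was not called. Prkacb, the other catalytic subunit, had 894.6, 872.4 and 1020 and was not called in both tables.

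Other genes of the pathway were counted by lists of G proteins, effectors other than PKA, PKA inhibitors, A-kinase anchors, the CREB family, phosphatase inhibitors, PACAP and its receptor, and the cGMP arm. Of their 57 genes, 51 were tested, and 8 were higher and 5 lower in CA1 than in CA3, 7 higher and 8 lower in CA1 than in DG, and 11 higher and 13 lower in CA3 than in DG. The shares of all genes called in these pairs were 14.1%, 26.4% and 27.9%, so the 15 of 51 called between CA1 and DG were near the share of all genes. The PKA inhibitors, small proteins that block the catalytic subunit, were called lower in CA3 than in DG in 3 of 3 cases, beside 14.0% of all genes. Pkib stood at -0.92 ± 0.14 there (limma, adjusted p = 7.01e-08), and its CA1 minus DG difference was -1.24 ± 0.14 (adjusted p = 5.37e-12). Bves, a membrane protein that binds cAMP, was higher in CA3, with CA1 minus CA3 at -1.47 ± 0.22 (adjusted p = 3.08e-08) and CA3 minus DG at 1.19 ± 0.22 (adjusted p = 2.04e-06). Adcyap1, the gene of the peptide PACAP whose receptors stimulate cyclases, was higher in CA1 than in CA3 by 1.10 ± 0.22 (adjusted p = 2.56e-05), and Ppp1r1a, a phosphatase inhibitor that PKA activates, by 0.55 ± 0.08 (adjusted p = 8.91e-08). In the cGMP arm, Npr1, a receptor cyclase for natriuretic peptides, was higher in CA1 than in DG by 0.91 ± 0.12 (adjusted p = 4.46e-10) and in CA3 than in DG by 1.00 ± 0.12 (adjusted p = 1.41e-11). For Prkg1, the cGMP-dependent kinase, CA1 minus DG was -0.91 ± 0.12 (adjusted p = 1.32e-09).

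The second question was whether the members differed between aged and young rats. Here a gene was called when its Illumina limma p-value was under 0.01, unadjusted, and its one-sided Ion Proton p-value was under 0.05 in the same direction. By this rule 0 members were called in CA1, CA3 and DG, where 0.832%, 0.393% and 1.07% of all genes tested were. At an unadjusted p under 0.05 on Illumina, limma had 2, 1 and 0 of the 37 members, edgeR had 2, 2 and 1, and DESeq2 had 2, 2 and 1, and none had an adjusted p under 0.05 by these 3 tools. The 95% intervals of the change lay within 1.5-fold in either direction for 34 members in CA1, 33 in CA3 and 33 in DG. The intervals of Adcy1, Adcy10 and Pde11a in CA1, of Adcy1, Pde11a, Pde4c and Pde9a in CA3 and of Adcy4, Pde11a, Pde1c and Pde4c in DG reached beyond it. The median log2 change of the members was -0.007 in CA1, 0.043 in CA3 and 0.023 in DG, beside -0.005, -0.014 and -0.002 for all genes.

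**Figure D3:**
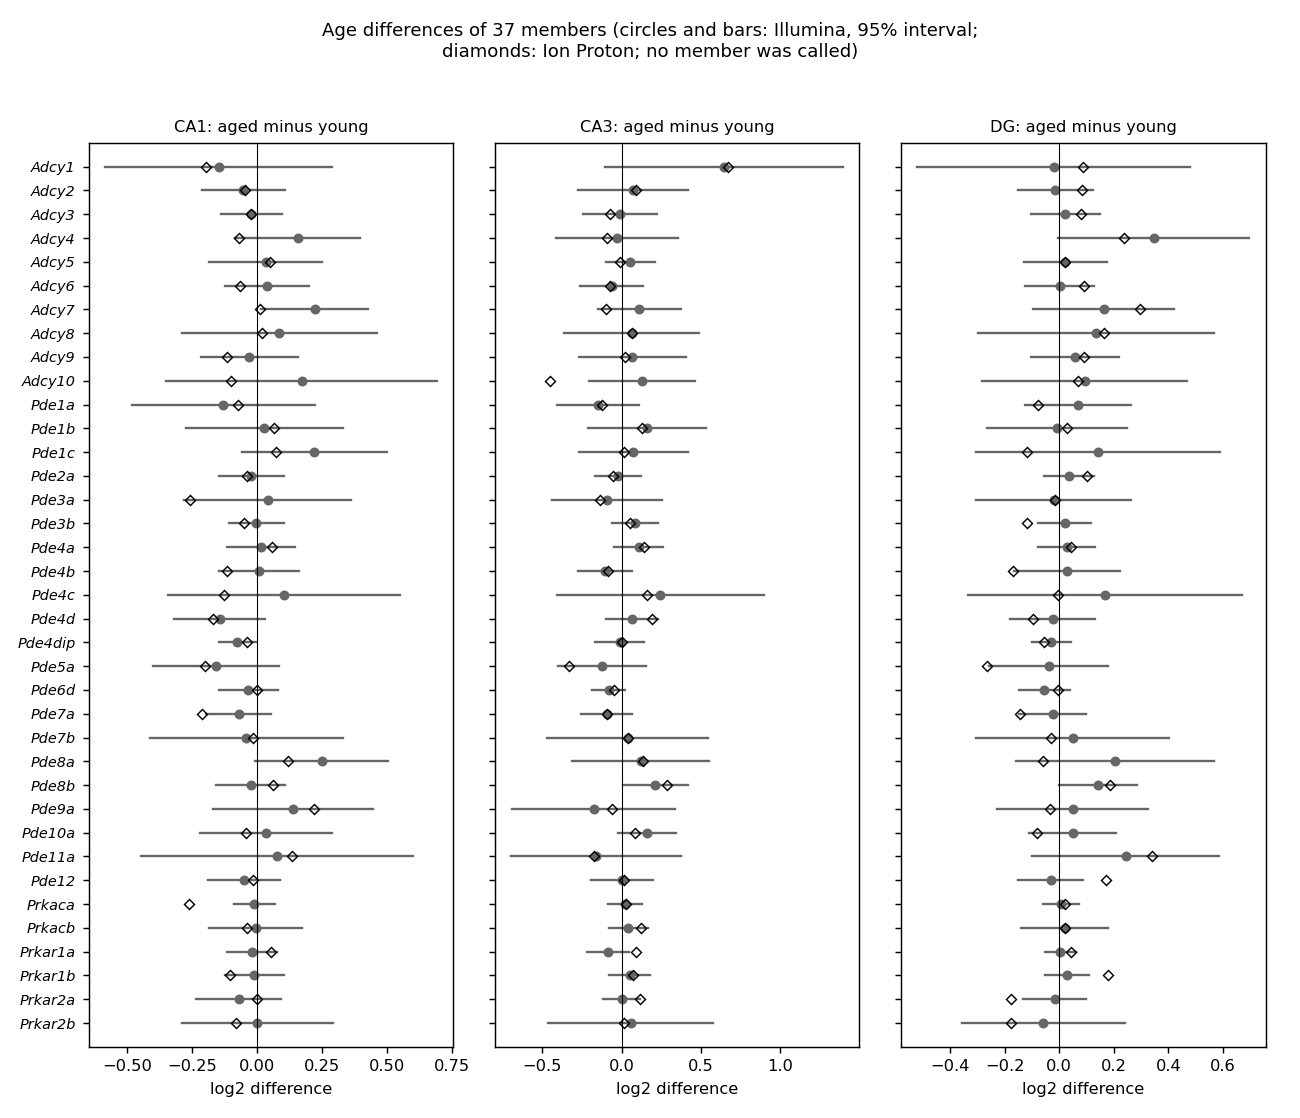
Log2 differences of aged minus young rats for the 37 tested members, 1 per line, in CA1, CA3 and DG. Circles and bars are the Illumina estimate and its 95% interval and diamonds the Ion Proton estimate, and no member is in the red of a call. The CA3 interval of Adcy1 runs from -0.10 to 1.39.

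The members with the smallest p-values outside CA3 were Pde4dip and Adcy7 in CA1 and Adcy4 and Pde8b in DG. In CA1, Pde4dip had a median of 3487 in Y (3310 to 4008) and 3320 in aged rats (2948 to 3791), with a log2 difference of -0.08 ± 0.04 (limma, adjusted p = 0.755). Adcy7 had 69.3 in Y (57.2 to 81.6) and 86.9 in aged rats (47.5 to 109.4), a difference of 0.22 ± 0.10 on Illumina (adjusted p = 0.759) and of 0.01 on Ion Proton. The 12 microglial markers summed to a median of 8006 in Y (6795 to 10687) and 9988 in aged rats (7266 to 13613) there. By the same rule 6 of them were called higher in aged CA1, 3 in CA3 and 9 in DG, and of the 10 astrocyte markers Gfap was called higher in each subfield. The part of these markers in the members' differences was not tested. In DG, Adcy4 had 41.5 in Y (22.3 to 62.0) and 50.5 in aged rats (24.3 to 86.7), a difference of 0.35 ± 0.17 (adjusted p = 0.98). The ranges of young and aged rats overlapped in each of these. Pde8b in DG had 366.0 in Y (316.0 to 433.0) and 400.1 in aged rats (307.4 to 615.7), a difference of 0.14 ± 0.07 (adjusted p = 0.98), and its ranges overlapped too.

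In CA3, Pde8b and Adcy1 were called only with the number series in the fit. Pde8b had a median of 328.0 in Y (235.1 to 411.1), 361.8 in OG (294.6 to 480.5) and 315.8 in OB (294.1 to 569.0), and aged minus young was 0.21 ± 0.10 (limma, p = 0.0427, adjusted p = 0.999). Adcy1 had 1153 in Y (556.2 to 2084), 1846 in OG (648.4 to 5898) and 1202 in OB (520.4 to 10263), and aged minus young was 0.65 ± 0.37 (p = 0.0887, adjusted p = 0.999). Pde10a, also among the smallest p-values, differed by 0.16 ± 0.09 (p = 0.0844). With the series as a covariate Pde8b was called at 0.23 (p = 0.00236) and Adcy1 at 0.71 (p = 0.00747). In the 7 rats with 28.0 M Illumina reads or more (3 Y, 4 aged), the Pde8b difference had the opposite sign, at -0.03 on Illumina, -0.06 on Ion Proton and -0.05 in WT. Without these rats it was 0.27, 0.35 and 0.22, and the part of depth was not tested. For Adcy1 the medians were 695.3 in the 5 Y and 1049 in the 13 aged rats numbered below 9000, and 1787 in the 5 Y and 3128 in the 11 aged rats from 9000 up. The CA3 libraries against their label were 2 of Y, 3 of OG and 2 of OB rats, all from 9000 up, and without them the Adcy1 difference was 0.44 (p = 0.175) and that of Pde8b 0.19 (p = 0.0514). The dentate granule markers summed to a median of 998.7 in Y (555.6 to 2389) and 950.8 in aged CA3 (475.1 to 7256), and the median log2 difference of the 6 tested was 0.25, aged minus young. Their part in the Adcy1 difference was not tested.

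**Figure D4:**
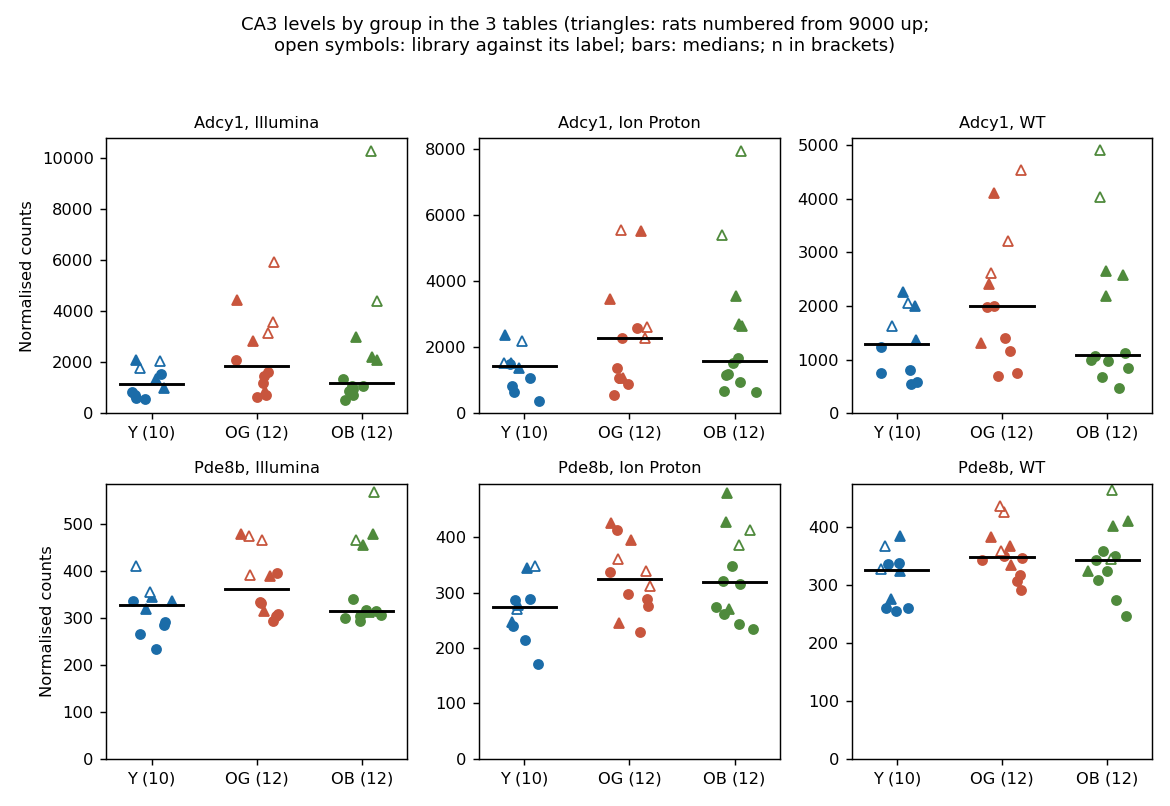
CA3 levels of Adcy1 and Pde8b (normalised counts) in Y, OG and OB rats in the Illumina, Ion Proton and WT tables, 1 point per rat and a bar at the median. Triangles are rats numbered from 9000 up and open symbols libraries against their label. The highest Adcy1 point, 10263 on Illumina, is an open triangle.

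Each aged group was also set against the same 10 young rats, which both comparisons share. For OG, 0 members were called in CA1, CA3 and DG, beside 0.655%, 0.281% and 0.649% of all genes. For OB, 0 were called, beside 0.81%, 0.344% and 0.97%. With the number series as a covariate, Pde8b in CA3 was called for OG and for OB. At an unadjusted p under 0.05, limma had 1, 0 and 1 members for OG and 1, 0 and 0 for OB, edgeR had 1, 1 and 1 for OG, with 1, 1 and 0 for OB, and DESeq2 had 1, 1 and 1 for OG, with 1, 2 and 0 for OB. For OG the smallest p-values were those of Pde8a in CA1 (0.30 ± 0.14, limma p = 0.0445), of Pde8b in CA3 (0.23 ± 0.12, p = 0.0617) and of Pde8b in DG (0.22 ± 0.08, p = 0.00622, one-sided Ion Proton p = 0.0983). For OB they were those of Pde4dip in CA1 (-0.11 ± 0.04, limma p = 0.00739, one-sided Ion Proton p = 0.178), of Pde6d in CA3 (-0.11 ± 0.06, p = 0.0675) and of Pde2a in DG (0.08 ± 0.05, p = 0.106). The next smallest for OG were those of Adcy7 in CA1 (0.24 ± 0.12), Pde1a in CA3 (-0.26 ± 0.14) and Adcy4 in DG (0.37 ± 0.20). For OB they were those of Pde5a in CA1 (-0.24 ± 0.14), Pde10a in CA3 (0.19 ± 0.10) and Adcy4 in DG (0.33 ± 0.20).

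An age effect that differed between subfields was tested as an interaction. For each of the 3 pairs, 0 members and 0.0% of all genes had an adjusted limma p under 0.05. At an unadjusted p under 0.05, limma had 1, 0 and 0 members for CA1 and CA3, CA1 and DG, and CA3 and DG, edgeR had 2, 0 and 2 and DESeq2 had 2, 0 and 2. The 1 member of limma was Pde8b, at -0.24 ± 0.12 for CA1 minus CA3 (limma, p = 0.0417).

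The third question was whether impaired and unimpaired aged rats differed. In CA1, 1 member, Prkar2b, was called, beside 0.62% of all genes. In CA3 and DG 0 were, beside 0.0211% and 0.121%. At an unadjusted p under 0.05, limma had 5, 1 and 2 members in CA1, CA3 and DG, edgeR had 4, 1 and 2 and DESeq2 had 4, 1 and 2. No member had an adjusted p under 0.05 on Illumina by these 3 tools. Intervals lay within 1.5-fold in either direction for 31, 29 and 32 of the 37 members.

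Prkar2b in CA1 had an Illumina median of 448.0 in OG (270.3 to 871.0) and 633.3 in OB (473.9 to 740.4), with 559.4 in Y (295.5 to 840.0). Of the 12 OB rats, 12 lay above the OG median, and 6 of the 12 OG rats lay below the lowest OB rat, but the ranges overlapped. OB minus OG was 0.40 ± 0.14 on the log2 scale (limma, p = 0.00664, adjusted p = 0.614). On Ion Proton the medians were 322.6 in OG (176.3 to 787.3) and 441.2 in OB (344.0 to 811.1), a difference of 0.45 (limma, one-sided p = 0.0153). In WT they were 307.5 and 402.7, a difference of 0.26 (p = 0.0688). The call was lost there, with edgeR (0.35, p = 0.0156) and with DESeq2 (0.35, p = 0.0117). The difference was 0.20 among the rats numbered below 9000 and 0.61 among those from 9000 up. It was 0.77 in the 2 OB and 2 OG rats with 28.0 M Illumina reads or more, and 0.33 without them. The CA1 library of OG rat R9869 stood against its label, with a striatal marker sum of 25509. Without it the difference was 0.48 (limma, unadjusted p = 0.000435).

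Prkacb (ENSRNOG00000004978), a catalytic subunit that regulatory subunits hold, had the next smallest p in CA1 and was not called. Its Illumina median was 829.9 in OG (614.2 to 994.2) and 995.5 in OB (760.5 to 1231), with 917.2 in Y (629.4 to 1187). The ranges overlapped, with 10 of the 12 OB rats above the OG median. OB minus OG was 0.22 ± 0.08 (limma, p = 0.0106, adjusted p = 0.679) and 0.34 on Ion Proton (one-sided p = 0.0103). It was called with edgeR (0.22, p = 0.00939), with DESeq2 (0.22, p = 0.00739), with WT in place of Illumina (0.18, p = 0.00923), under quantile normalisation (0.23, p = 0.00654) and with the series as a covariate (0.20, p = 0.00659). The difference was 0.17 below 9000 and 0.23 from 9000 up.

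**Figure D5:**
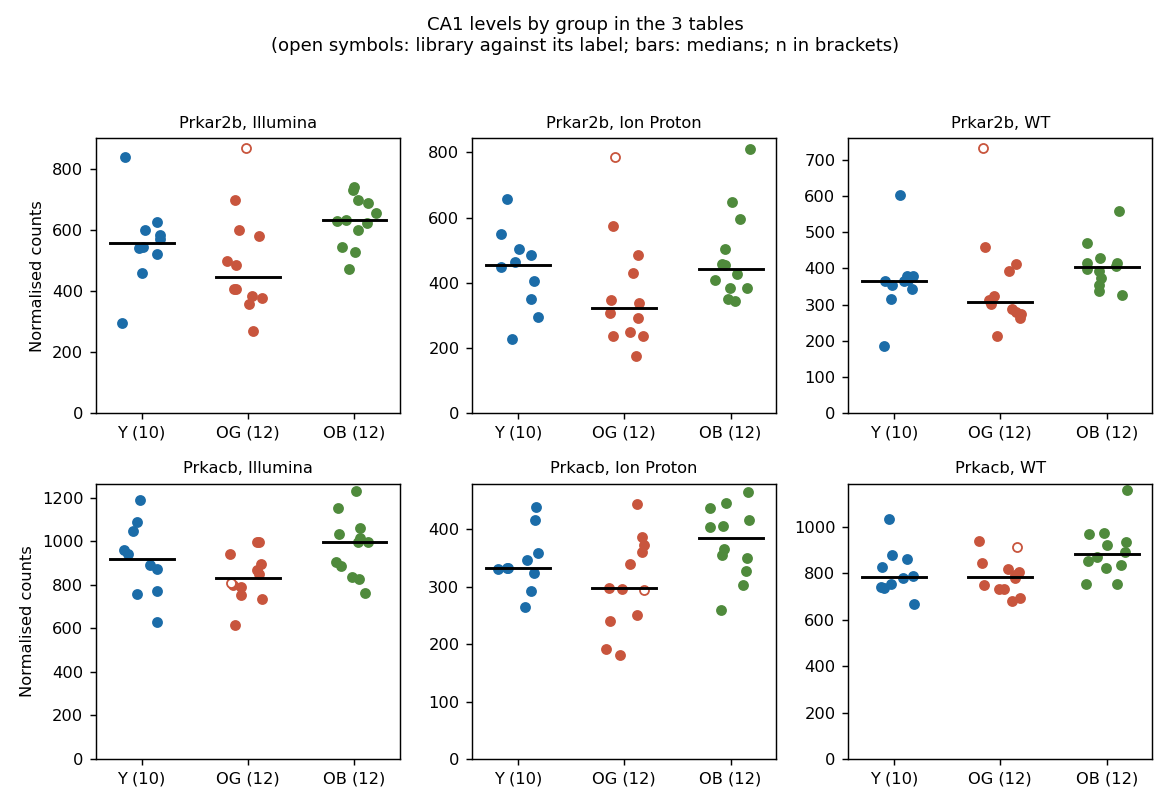
CA1 levels of Prkar2b and Prkacb (normalised counts) in 10 Y, 12 OG and 12 OB rats in the Illumina, Ion Proton and WT tables, 1 point per rat and a bar at the median. In each panel the OB median lies above the OG median (633.3 and 448.0 for Prkar2b on Illumina), the ranges overlap, and the open symbol is OG rat R9869.

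Tissue markers of these CA1 pieces overlapped between the groups. On Illumina, the CA1 markers (7 of 8 listed in the table) summed to a median of 16744 (2691 to 26165) in OG and 14178 (9804 to 16645) in OB, and the 7 CA3 markers to 7679 (5811 to 12893) and 7481 (3880 to 10124). The 8 dentate markers summed to 3012 (740.9 to 5239) and 3893 (1061 to 5757), and the 10 oligodendrocyte markers to 151247 (99771 to 308164) and 136371 (106081 to 214751). The median log2 difference, OB minus OG, was 0.39 for the 6 dentate, -0.31 for the 6 CA3, 0.06 for the 6 CA1 and -0.13 for the 10 oligodendrocyte markers, so that of the dentate markers was near the 0.40 of Prkar2b. Among the other lists it ran from -0.55 for 7 choroid plexus markers to 0.28 for 4 thalamus and habenula markers. No gene of the CA1, CA3, dentate and oligodendrocyte lists was at 0 throughout. The part of any of these markers in the Prkar2b and Prkacb differences was not tested.

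In the other subfields the smallest p-values belonged to other members. In CA3, Pde3a had a median of 75.2 in OG (44.9 to 101.7) and 89.0 in OB (70.6 to 170.4), a difference of 0.35 ± 0.14 (limma, p = 0.0203, adjusted p = 1.0), and Adcy7 differed by 0.26 ± 0.15 (p = 0.0831). In DG, Adcy2 had 1949 in OG (1740 to 2301) and 1796 in OB (1411 to 2060), a difference of -0.17 ± 0.07 (p = 0.019, adjusted p = 0.999). With the series as a covariate Adcy2 was called, at -0.18 (p = 0.01), and the difference was -0.04 below 9000 and -0.35 from 9000 up. On Ion Proton these were 0.03 and -0.38, so below 9000 the direction differed between the tables. Without the 4 DG libraries against their label (3 OG, 1 OB), Adcy2 differed by -0.12 on Illumina (limma, p = 0.115) and -0.06 on Ion Proton, beside -0.17 and -0.14 with them. Pde8b in DG differed by -0.16 ± 0.08 on Illumina (p = 0.047) and by 0.03 on Ion Proton. Of the 57 genes of the pathway lists, 1 was called in CA1 for cognition, Akap13, an A-kinase anchor, at -0.26 ± 0.09 (limma, p = 0.00804, adjusted p = 0.644), and 0 were called for age in any subfield.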

How the data were processed

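The sources used here are 3 deposited tables of the same pieces of tissue. The study's methods describe Illumina and Ion Proton libraries made separately, with different kits and at different sites. The unit of every value is a normalised signal, that is, gene counts that the authors had divided by a DESeq2 size factor per library. In the study's methods, Illumina and Ion Proton reads were aligned to rn5 and counted with featureCounts. The submitters' processing notes name STAR 2.5, cutadapt 1.8.3, featureCounts 1.4.4 and DESeq2 1.16.1. The library type, aligner and counter of WT are not given in the sources used here. Labels and methods name different kits, so the strand setting is uncertain, and a gene may hold reads of one that overlaps it.

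Every value above 0 was a whole multiple of 1 step per library (100.0% within 0.01 read), which returned the reads behind the depths and the edgeR and DESeq2 fits. Genes with a mean of at least 10 entered limma 3.58.1 (under R 4.3.3), as log2 of the value plus 1, with a trend in the variance, and p-values were adjusted over all genes. A log2 change on this scale understates that of low genes. Subfields were fitted over all libraries, age, group and cognition within a subfield. The same rat gave all 3 subfields and both poly-A tables, so Ion Proton is a technical retest of the same animals. Each rat is 1 replicate.

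Alternatives were a pseudocount of 0.1, no filter, edgeR 4.0.16, DESeq2 1.42.0, WT in place of Illumina, quantile normalisation, the number series as a covariate, rat as a block, and fits without the 12 libraries against their label or without Y rat R9876 or R9780. Within-series values and values with and without the 7 rats with 28.0 M Illumina reads or more were added after the data were seen. Fits were tested on simulated data. Members and lists were chosen with earlier results of these data known. Named by rule were members called with a log2 change of at least 1 between subfields, every member called for age or cognition, the 2 smallest p-values where none was, the 3 highest means of each family and members under the filter. The remaining members are given to account for the whole set. The tables' symbols and identifiers were used, and the promoter windows are of another build than the tables.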

Additional observations from a re-analysis of the deposited data

Results flagged for a closer look

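Among the 10 young rats of a subfield, a single Illumina value stood far from the other 9 in 14 of 111 member and subfield groups by Dixon's test. A rate of 1 in 20 would give about 5.5 for independent groups of normal values. Members share libraries and the values are untransformed, so this number cannot show an excess. Values are normalised counts, with the range of the other 9 rats in parentheses, and the part of any marker named here was not tested.

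Young rat R9876 gave 5 of the 14. Its CA3 library held 209.3 of Adcy4 (39.7 to 83.1), 202.3 of Pde3a (42.2 to 127.4), 304.2 of Pde5a (106.5 to 207.4) and 118.6 of Pde7b (28.5 to 73.8). In that library the sum of 5 smooth muscle and pericyte markers was 6963, beside 740.5 to 2077 in the other 33 CA3 libraries, and that of 8 endothelial markers 7438, beside 1150 to 3856 (Ly6c was at 0 throughout). Its CA1 library held 76.4 of Adcy10 (13.3 to 29.9), with a choroid plexus sum of 593.4.

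Young rat R9881 gave 4, all in DG, at 510.0 of Pde10a (715.9 to 933.8), 107.9 of Pde1c (9.16 to 46.0), 68.7 of Pde7b (123.7 to 183.2) and 510.0 of Pde8a (120.1 to 271.1). In this library 8 dentate markers summed to 1871, beside 774.9 to 11764 in the other 33 DG libraries, and 10 oligodendrocyte markers to 232761, beside 47898 to 209994. Of 33 other DG libraries, 33 had lower sums of thalamus and habenula (2169, beside 231.1 to 1087), choroid plexus (3898, beside 15.3 to 971.4), interneuron (9999, beside 4457 to 9814) and oligodendrocyte precursor markers (7200, beside 3002 to 6196). It was not among the 12 libraries against their label.

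The others were 818.6 of Pde10a (474.1 to 647.3) in CA3 and 2034 of Prkaca (2264 to 2522) in DG of rat R1923, 92.5 of Pde1c (31.4 to 60.8) in CA1 of rat R9879, 148.0 of Pde3a (52.7 to 89.4) in DG of rat R2175 and 948.5 of Pde8a (211.1 to 524.2) in CA3 of rat R2221. The last library had the highest sum of oligodendrocyte markers in CA3, 407460, beside 58120 to 285010, of choroid plexus markers, 13057, beside 55.4 to 2993, and of precursor markers, 10502, beside 4455 to 8364.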

How the results depend on the processing

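Counts of members called between subfields stayed within 1.5 times of the reported 13 (CA1 and CA3), 16 (CA1 and DG) and 18 (CA3 and DG) under every alternative run, at 11 to 14, 13 to 17 and 17 to 20. The same rat gave all 3 subfields, so the libraries are paired by animal, and with rat as a block the counts were 13, 15 and 20, and the interactions of age stayed at 0. With the block, 1 of the 47 calls between subfields was lost, that of Pde11a between CA1 and DG. No paired analysis was possible within a subfield because each rat gave 1 library there. Without the 12 libraries against their label the counts were 14, 17 and 20, but subfield markers had picked these libraries, so this is no independent check. In the fits planned at the start, no named member turned sign, and 479 values kept their side of the threshold, 27 lost the call and 8 gained it. In splits by number series and depth, added after the data were seen, 4 of the values turned sign. They were Pde8b for age in CA3 within the 7 deeply sequenced rats (-0.033 on Illumina, -0.062 on Ion Proton, -0.051 in WT) and Adcy2 for cognition in DG below 9000 on Ion Proton (0.029). The count for OB against OG in CA1, reported as 1, was 2 under quantile normalisation and 2 with the number series as a covariate (Prkar2b and Prkacb). With that covariate, the reported 0 became 2 for aged against young in CA3 (Adcy1 and Pde8b), 1 for OG against Y and 1 for OB against Y in CA3 (Pde8b), and 1 for OB against OG in DG (Adcy2). The cause was not tested. Counting error limits genes near the filter, such as Adcy10 and Pde4c, and the 5 Pde6 genes below it. The calls for cognition rest on unadjusted p-values, and their adjusted values in the reported fits were 0.614 and above.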

Other observations

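These libraries were chosen after their values were seen. The CA1 library of OG rat R9869 held, in normalised counts on Illumina with the range of the other 33 CA1 libraries in parentheses, 5450 of Pde1b (1103 to 2246), 5332 of Adcy5 (1562 to 2150) and 1675 of Pde10a (347.2 to 779.3), 3 members known from striatal neurons. It held 5015, 4862 and 1890 of them on Ion Proton and 4609, 4979 and 3968 in WT, the highest CA1 values in each table. Its Illumina sum of 8 striatal markers was 25509, beside 1818 to 3599 in the others, and its sum of CA1 markers 2691, beside 9524 to 26165. The part of these markers in the 3 values was not tested.

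Adcy10, the soluble cyclase, had its highest CA1 value in OB rat R9870, at 121.1 normalised counts on Illumina, 99.9 on Ion Proton and 82.4 in WT, beside a median of 20.7, 13.2 and 13.9 in the other CA1 libraries. That library also had the highest Illumina sum of choroid plexus markers in CA1, 154354, beside 13.2 to 129045. On Illumina the CA1 library of Y rat R9876 had the next highest Adcy10 value, 76.4, with a choroid plexus sum of 593.4. On Ion Proton it held 55.9, and another CA1 library stood above it at 79.8. The sum was lower in 24 of the other 33 CA1 libraries, and of those in which it was higher only R9870 had a higher Adcy10 value. The part of these markers was not tested.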
